A study of Mus musculus with 4 samples.

Results

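The 10 genes described here form the insulin-like growth factor (IGF) axis of the liver together with H19, the imprinted neighbour of Igf2. They were taken by gene symbol from a table of 24493 gene symbols, and all 10 were found. The set was chosen on the levels of these genes in the 4 libraries, with the differences between the groups already known, so those differences are given as a description with no test. The libraries came from cultured mouse liver cells of hepatocyte origin on a C57BL/6 background, untreated, from 2 clones numbered 15C7 and 19H5. The Bil_2D group (n = 2) held biliary cells derived from hepatocytes and grown in 2D culture, and the Hep_3D group (n = 2) held hepatocytes in 3D culture. Each clone gave 1 library to each group, so a group is 2 clones and culture format cannot be told apart from cell state. Values are TPM, transcript shares that are corrected for transcript length and sum to 1000000 in each library. They keep no sequencing depth, so the counting error of a low value is unknown. The age of the mice was not given in the labels.

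IGF1 and IGF2 are secreted growth factors that signal through the receptor tyrosine kinase IGF1R, while IGF2R, which also carries mannose 6-phosphate tagged enzymes, takes up IGF2 for degradation. In the circulation the ligands are bound by IGF binding proteins, and IGFBP3 forms a ternary complex with a ligand and the acid-labile subunit made from Igfals. Adult hepatocytes are the main endocrine source of IGF1 under growth hormone, whereas mouse liver expresses Igf2 and H19 strongly before birth and silences both afterwards. Igf2 is expressed from the paternal and H19 from the maternal allele, and both use enhancers that lie beyond H19.

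Both genes lie on the minus strand of chromosome 7. In GENCODE M21 (mm10) Igf2 spans 142650766 to 142666816 and H19, a long non-coding RNA, 142575529 to 142578143, with 72.6 kb between the 3′ end of Igf2 and the 5′ end of H19. Each hosts a microRNA: the Mir675 hairpin (142577064 to 142577147) lies in exon 1 of the H19 transcript that contains it, and the Mir483 hairpin (142654924 to 142654996) lies in an intron of all 5 Igf2 transcripts that span it. Their mature sequences from RefSeq (GRCm38.p6), shown because these are the small RNA products of the pair, carry 4 different seeds (bases 2 to 8, in capitals), none shared with another of the 1738 mature miRNAs in that table.
mmu-miR-483-5p: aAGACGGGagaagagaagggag
mmu-miR-483-3p: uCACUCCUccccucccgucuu
mmu-miR-675-5p: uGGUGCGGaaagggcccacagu
mmu-miR-675-3p: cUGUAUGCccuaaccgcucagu

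**Figure D1:**
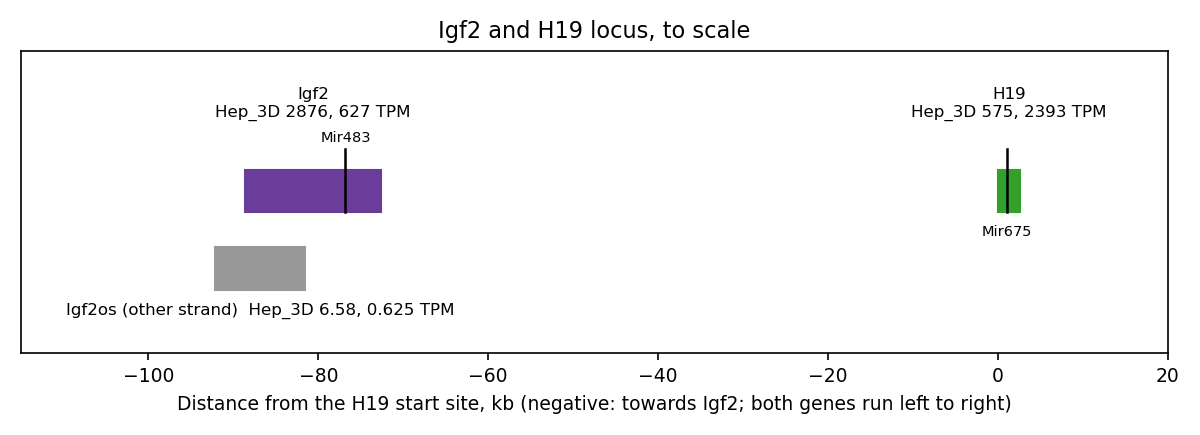
Map of the Igf2 and H19 locus, drawn to scale, with distance in kb from the H19 start site on the x axis and the TPM of the 15C7 and then the 19H5 Hep_3D library under each name. Igf2 and H19 run in the same direction, Mir483 lies inside Igf2 and Mir675 inside H19, and Igf2os lies on the other strand across the 5′ part of Igf2.

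Promoter windows of 300 bases, most of each window lying upstream of a start site, were matched by symbol in the RefSeq table for 9 of the 10 genes, 15 windows in all. H19 was not matched. The windows printed are those of a growth factor and a binding protein that were higher in Hep_3D (Igf2, whose window 4 of 4 held the most motif matches of its start sites, and Igfbp1) and of both receptors that were lower (Igf1r and Igf2r). TPM per gene does not tell which of the 4 Igf2 start sites was used. The letters searched on both strands were TATAAA (known as the TATA box), CCAAT (the CCAAT box), GGGCGG (the SP1 box), CAAAACA (an insulin response motif) and TTGCGCAA (a C/EBP motif). Capitals mark the matches, and no match overlapped another.
Igf2, chr7:142657447-142657746, minus strand: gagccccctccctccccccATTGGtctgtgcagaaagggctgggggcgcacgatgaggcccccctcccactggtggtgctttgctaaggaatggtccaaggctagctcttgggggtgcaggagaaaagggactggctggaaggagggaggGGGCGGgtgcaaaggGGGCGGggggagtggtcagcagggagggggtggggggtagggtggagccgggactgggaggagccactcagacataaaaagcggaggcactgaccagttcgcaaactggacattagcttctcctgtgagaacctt
Igfbp1, chr11:7197537-7197836, plus strand: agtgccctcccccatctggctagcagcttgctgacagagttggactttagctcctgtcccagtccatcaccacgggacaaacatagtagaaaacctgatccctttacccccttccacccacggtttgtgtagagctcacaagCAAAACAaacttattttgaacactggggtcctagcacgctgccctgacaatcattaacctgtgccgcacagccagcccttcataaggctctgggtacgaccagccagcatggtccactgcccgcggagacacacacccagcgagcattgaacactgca
Igf1r, chr7:67952007-67952306, plus strand: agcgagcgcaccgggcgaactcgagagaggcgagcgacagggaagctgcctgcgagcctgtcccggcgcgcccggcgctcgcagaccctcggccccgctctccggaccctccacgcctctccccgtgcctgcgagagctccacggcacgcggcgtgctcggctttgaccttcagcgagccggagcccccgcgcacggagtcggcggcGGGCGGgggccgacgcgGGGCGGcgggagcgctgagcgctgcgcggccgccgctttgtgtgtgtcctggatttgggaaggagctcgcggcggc
Igf2r, chr17:12769657-12769956, minus strand: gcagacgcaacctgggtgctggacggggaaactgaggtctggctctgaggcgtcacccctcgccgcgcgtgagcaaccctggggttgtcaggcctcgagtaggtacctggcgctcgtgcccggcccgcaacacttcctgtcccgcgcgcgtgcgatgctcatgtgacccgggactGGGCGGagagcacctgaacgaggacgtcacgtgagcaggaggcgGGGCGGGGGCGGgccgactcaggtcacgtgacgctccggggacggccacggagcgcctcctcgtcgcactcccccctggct

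The receptor windows were rich in G and C, at 76% for Igf1r and 70.7% for Igf2r, against a median of 52.7% over 32817 windows. They held 2 and 3 SP1 boxes, a motif found in 35.6% of all windows. Neither trait was particular to the receptors. The windows of Igfbp3 and Igfbp4, without an SP1 box, had 71.7% and 71.3% G and C. Window 1 of Igfbp2 had 67% and 3 SP1 boxes. The Igf2 window held 2 SP1 boxes and a CCAAT box (37.4% of all windows), and the Igfbp1 window held 1 CAAAACA (6.29% of all windows), the motif through which insulin is known to lower Igfbp1 transcription. The TATA box, in 13.6% of all windows, was matched among these genes in that of Igfbp4, and TTGCGCAA, in 0.183% of all windows, in none of the 15. These are matches of letters and not measured binding.

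Igf2, H19 and Igfbp1 were near absent in Bil_2D and among the abundant transcripts of Hep_3D. Igf2 stood at 0.764 and 0.371 TPM in the Bil_2D libraries of clones 15C7 and 19H5, and at 2876 and 627 TPM in their Hep_3D libraries. H19 stood at 0.873 and 1.05 TPM in Bil_2D and at 575 and 2393 TPM in Hep_3D. The Hep_3D libraries lay far above both Bil_2D libraries for each gene, but the clone with the higher level was 15C7 for Igf2 and 19H5 for H19. Ranked among all 24493 gene symbols, Igf2 was number 44 in the 15C7 Hep_3D library and number 191 in that of 19H5, while H19 was number 214 and number 46.

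The group means of Igf2 were 0.568 ± 0.278 TPM in Bil_2D and 1752 ± 1590 in Hep_3D (SD, n = 2), a difference of 9.76 on the log2(TPM + 1) scale. For H19 they were 0.963 ± 0.127 and 1484 ± 1286 TPM (SD, n = 2), a difference of 9.23. Neither gene would have passed the filter of the tested genes (at least 1 TPM in at least 2 libraries) without its Hep_3D values. Passing it is therefore no support for the difference. H19 reached 1.05 TPM in the 19H5 Bil_2D library, and Igf2 stayed under 1 TPM in both Bil_2D libraries. The difference of Igf2 was 10.67 in clone 15C7 and 8.84 in clone 19H5, and that of H19 was 8.26 and 10.19.

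Igfbp1 encodes a binding protein that hepatocytes secrete and that insulin represses. It stood at 4.42 and 2.45 TPM in the Bil_2D libraries of 15C7 and 19H5, and at 1231 and 755 TPM in Hep_3D. The groups lay far apart, and the difference was nearly the same in both clones, at 7.83 and 7.78 on the log2 scale. The group means were 3.43 ± 1.39 and 993 ± 337 TPM (SD, n = 2).

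**Figure D2:**
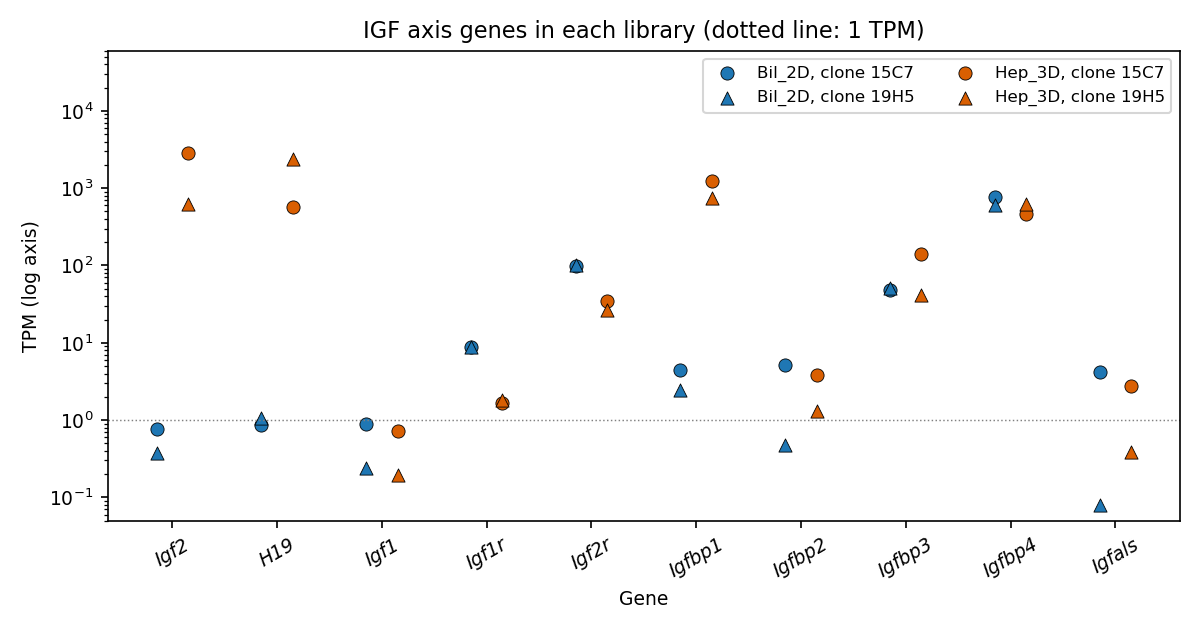
TPM of the 10 genes (log axis) in the Bil_2D (blue) and Hep_3D (orange) libraries, with circles for clone 15C7 and triangles for clone 19H5, each point 1 library. Igf2, H19 and Igfbp1 lie under 5 TPM in Bil_2D and between 575 and 2876 TPM in Hep_3D, Igf1r and Igf2r are lower in Hep_3D, and Igf1 lies under 1 TPM in all 4 libraries.

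A second scale was needed because a few abundant genes took a larger share of Hep_3D. The 50 most abundant genes of each library held 46.6% and 48.4% of all TPM in Hep_3D against 22.4% and 24.8% in Bil_2D. The median log2 difference of the 12336 genes tested was -0.73 in TPM. Median-of-ratios scaling, which divides each library by the median ratio of its genes to their geometric mean, brought it to -0.02, and values so scaled are called rescaled TPM. In rescaled TPM the difference was 10.30 for Igf2, 9.82 for H19 and 8.51 for Igfbp1.

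Over the 10 genes, the Hep_3D and Bil_2D libraries did not overlap for 3 higher (11.1% of all genes tested) and 2 lower in Hep_3D (71.9% of all genes tested), and 5 overlapped. In rescaled TPM, 5 were higher without overlap (33.6% of all genes tested) and 2 lower (34.7%). Nothing is read from these shares, since the genes were chosen with this contrast in view. Of the 10 genes, 9 passed the filter, and Igf1 did not. With 2 libraries a group, the smallest two-sided p of an exact permutation test is 0.333.

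Both receptors were lower in the hepatocyte cultures, with almost no spread between clones in Bil_2D. Igf1r, the signalling receptor, stood at 8.88 and 8.75 TPM in the Bil_2D libraries of 15C7 and 19H5 and at 1.66 and 1.79 TPM in Hep_3D. The mean in Bil_2D was 5.10 times that in Hep_3D (8.81 ± 0.0938 against 1.73 ± 0.0928 TPM; SD, n = 2). The groups were well apart, and on the log2(TPM + 1) scale the difference was -1.85, or -1.21 in rescaled TPM.

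Igf2r, the receptor that clears IGF2, stood at 99.9 and 102 TPM in the Bil_2D libraries of 15C7 and 19H5 and at 34.3 and 26.2 TPM in Hep_3D. Its mean in Bil_2D was 3.33 times that in Hep_3D (101 ± 1.44 against 30.3 ± 5.76 TPM; SD, n = 2). The groups did not overlap, and the difference was -1.72 on the log2 scale and -0.91 in rescaled TPM. Igf2r was the more abundant receptor in every library. The ratio of Igf2r to Igf1r, which no scaling of libraries can change, was 11.2 and 11.7 in Bil_2D and 20.7 and 14.6 in Hep_3D.

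Ligand and receptor transcripts stood in different proportions in the cultures. Igf2 was present at 0.086 and 0.0424 TPM per TPM of Igf1r in the Bil_2D libraries of 15C7 and 19H5, and at 1730 and 350 in Hep_3D. Per TPM of Igf2r it was 0.00765 and 0.00364 in Bil_2D and 83.7 and 24.0 in Hep_3D. Both ratios were higher in each Hep_3D library than in either Bil_2D library.

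Igf1 and Igfals, the transcripts of the adult endocrine axis, were low in both groups. Igf1 stood at 0.884 and 0.238 TPM in the Bil_2D libraries of 15C7 and 19H5 and at 0.721 and 0.193 TPM in Hep_3D. The group difference was -0.09 on the log2(TPM + 1) scale and 0.16 after rescaling. Within a clone the Igf1 levels of the states lay close together, and the 15C7 library was 3.71-fold and 3.74-fold above that of 19H5 in Bil_2D and Hep_3D. Igf2 exceeded Igf1 by 3988-fold and 3254-fold in the Hep_3D libraries of 15C7 and 19H5, on the length-corrected TPM scale.

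Igfals stood at 4.22 and 0.0795 TPM in Bil_2D (15C7, then 19H5) and at 2.79 and 0.392 TPM in Hep_3D. The group ranges overlapped, and the 15C7 libraries were the higher ones in both states. Igfbp2, a binding protein of fetal and fasted liver, had the same order, at 5.14 and 0.482 TPM in Bil_2D against 3.81 and 1.31 in Hep_3D. For these genes the clones lay further apart than the states did.

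Igfbp4, a binding protein that inhibits IGF action, was the most abundant of the 4 binding protein genes in Bil_2D and lay at a like level in Hep_3D. It stood at 767 and 599 TPM in the Bil_2D libraries of 15C7 and 19H5 and at 457 and 620 TPM in Hep_3D. The groups overlapped in TPM, where the difference was -0.35. In rescaled TPM they did not overlap and the difference was 0.47, so the direction depended on the scaling.

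Igfbp3, the main carrier in serum, stood at 47.7 and 51.5 TPM in Bil_2D (15C7, then 19H5) and at 141 and 41.1 TPM in Hep_3D. The 15C7 Hep_3D library alone stood above the Bil_2D libraries, and that of 19H5 below them. The difference was 1.55 on the log2 scale in clone 15C7 and -0.32 in clone 19H5. In rescaled TPM these were 2.36 and 0.47.

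Within the summed TPM of Igfbp1 to Igfbp4, a share no scaling can alter, Igfbp4 held 93.0% and 91.7% in the Bil_2D libraries of 15C7 and 19H5 and 24.9% and 43.7% in Hep_3D. The share of Igfbp1 was 0.536% and 0.375% in Bil_2D and 67.2% and 53.3% in Hep_3D. Among Igfbp1 to Igfbp4, the leading transcript was thus Igfbp4 in both Bil_2D libraries and Igfbp1 in both Hep_3D libraries. The sum was 824 and 653 TPM in Bil_2D and 1833 and 1417 TPM in Hep_3D.

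**Figure D3:**
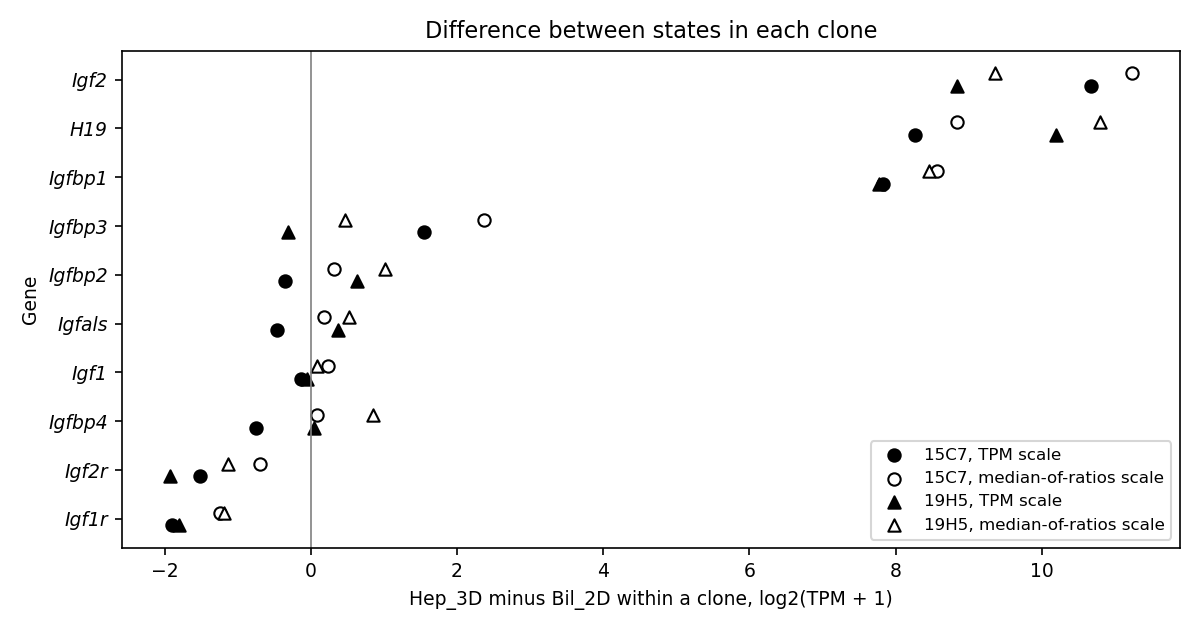
Difference between Hep_3D and Bil_2D within each clone for the 10 genes, in log2(TPM + 1), in TPM (filled) and rescaled TPM (open), with circles for 15C7 and triangles for 19H5. Igf2, H19 and Igfbp1 lie above 7 in both clones, Igf1r and Igf2r lie below 0 on both scales, and the other 5 lie between -0.75 and 2.36.

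The second comparison was between the clones, 19H5 against 15C7, with cell state as a term in the model. Whether this contrast was looked at when the genes were chosen is not recorded, so its values describe these libraries and support nothing further. None of the 9 genes tested passed in limma (0 of 12336 genes did on either scale, 0% of all), and the test had 1 residual degree of freedom. At an unadjusted p under 0.05, 1599 genes (13% of all tested) differed in TPM and 12.4% in rescaled TPM. Of the 9 genes, 3 had an unadjusted p under 0.05 in TPM: Igfals (log2 difference -1.86, SE 0.30, adjusted p = 0.28), Igfbp1 (-0.68, SE 0.11, adjusted p = 0.275) and Igfbp2 (-1.56, SE 0.33, adjusted p = 0.312), by limma with Benjamini-Hochberg adjustment. Igfals passed the filter through its 15C7 libraries alone (4.22 and 2.79 TPM, against 0.0795 and 0.392 TPM in 19H5). It therefore had to differ between the clones, and its p is no support for that difference.

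Of all 10 genes, 5 were lower in 19H5 in both states (Igf1, Igf2, Igfals, Igfbp1 and Igfbp2), H19 was higher in 19H5 in both, and 4 changed order between the states. Of the 12336 genes tested, 4939 were lower in 19H5 in both states and 2822 (22.9%) higher.

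The clones placed Igf2 and H19 in opposite order in Hep_3D. Igf2 was 4.58-fold higher in the 15C7 library and H19 was 4.16-fold higher in the 19H5 library. Igf2 stood at 5.0 TPM per TPM of H19 in 15C7 and at 0.262 in 19H5, a 19.1-fold gap between the libraries that no scaling of libraries can change. In Bil_2D, where both genes were near or under 1 TPM, the ratio was 0.875 in 15C7 and 0.353 in 19H5. The sum of the pair differed less, at 3450 TPM in the 15C7 and 3020 TPM in the 19H5 Hep_3D library.

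With 1 library per clone in a state there is no replicate of this difference. Over the 4 libraries the clone term gave Igf2 a log2 difference of -1.28 (SE 0.52, adjusted p = 0.433 in limma) and H19 one of 1.09 (SE 0.54, adjusted p = 0.482). Within Hep_3D, 105 of the 12336 genes tested (0.851%) were lower in 19H5 by as much as Igf2 or more, Igf2 included, and 65 (0.527%) were higher by as much as H19 or more, H19 included. These shares describe the libraries and are no test. Both genes were chosen on their levels in these libraries and needed their Hep_3D values to pass the filter.

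**Figure D4:**
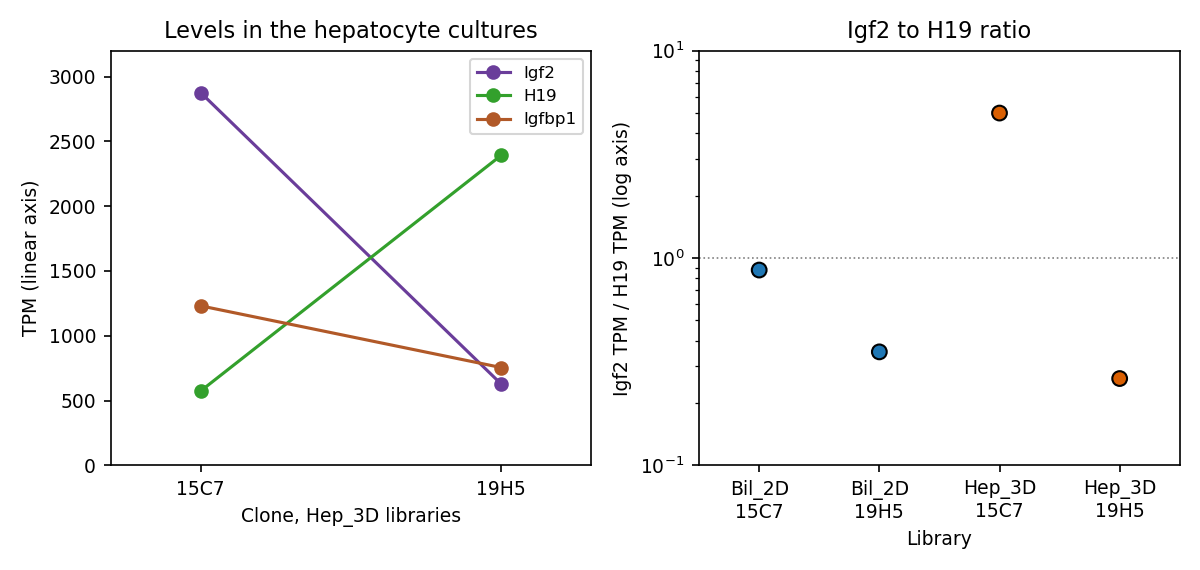
Left, TPM (linear axis) of Igf2, H19 and Igfbp1 in the 15C7 and 19H5 Hep_3D libraries, 1 point per library, with lines joining the points of a gene. Right, the ratio of Igf2 to H19 TPM (log axis) in all 4 libraries; Igf2 leads in the 15C7 Hep_3D library at 5.0 and H19 leads in the other 3.

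Markers of other cell types also differed between the Hep_3D libraries, in both directions. Of the biliary markers, Krt7 stood at 3.90 TPM in the 15C7 and 56.4 TPM in the 19H5 Hep_3D library, Krt19 at 1.12 and 15.9 TPM, and Tspan8 at 6.97 and 62.0 TPM. These 3 were higher in 19H5, as H19 was, and in the Bil_2D libraries they stood between 259 and 1615 TPM. Spp1, the most abundant gene of that list, had the other order, at 13093 TPM in 15C7 and 9284 TPM in 19H5, as had the hepatocyte marker Serpina1a, at 2990 and 560 TPM.

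Fibroblast and stellate cell markers summed to 180 TPM in the 15C7 Hep_3D library, 3.71 in that of 19H5, and 5.08 and 1.37 in the Bil_2D libraries of 15C7 and 19H5. Dcn (decorin) alone gave 178 TPM of the first sum. Of the 11 markers in this list, 1 passed the filter, and the defining collagen Col1a1 stood at 1.17 TPM or less in all libraries, with Col1a2, Col3a1, Pdgfra and Pdgfrb at 0.35 TPM or less. The high library for Dcn was also the high one for Igf2, Igfbp3 and Igfbp1, and the part of stromal or biliary cells in the differences between the clones was not tested. Fewer cells of a type and less RNA per cell cannot be told apart in such bulk libraries.

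The endothelial markers summed to at most 0.371 TPM, with Lyve1 and Clec4g at 0 in every library, the macrophage and leukocyte markers to at most 13.5 TPM, mostly Cd68, and the red blood cell markers to at most 6.30 TPM. The hepatocyte markers summed to 49241 and 47316 TPM in Hep_3D and to 1836 and 284 in Bil_2D. Of 9 hepatocyte markers 7 rose (77.8%, against 6.8% of all genes tested). Among those that rose, Cps1, Arg1 and Asgr1 were under 1 TPM in both Bil_2D libraries. They passed the filter through Hep_3D alone, so they had to be higher there. Of 7 biliary markers tested 1 rose and 4 fell in TPM (57.1%, against 51.9% of all genes), and 1 rose and 2 fell in rescaled TPM. Cftr, a biliary channel, did not exceed 0.08 TPM in any library.

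The other genes of the IGF pathway were tested in the comparison of Hep_3D with Bil_2D, from 5 lists of 51 genes of which 39 passed the filter. Of these 3 rose (7.69%) and 17 fell (43.6%) in limma at an adjusted p under 0.05, against 6.8% and 51.9% of all genes tested (58.7% in either direction). In rescaled TPM 7 rose and 7 fell (17.9% each), against 11.9% and 9.54% of all genes (21.4% in either direction). The median log2 difference was -0.70, beside -0.73 for all genes tested, and 0.10 in rescaled TPM, beside -0.02. On both scales 3 rose (Insr, Ghr and Socs3) and 7 fell (Igfbp7, Stc1, Htra1, Adam12, Adamts1, Irs2 and Akt1). Of the genes that fell in TPM, Adam12 and Igf2bp1 passed the filter through Bil_2D alone, so they had to be lower in Hep_3D.

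Leaving out a library lowered both counts in TPM. Those that rose numbered 2 without either Bil_2D library, and 0 and 1 without Hep_3D replicates 1 and 2. Those that fell numbered 9 without either Bil_2D library and 10 and 11 without Hep_3D replicates 1 and 2.

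Among receptors and binding proteins outside the 10, the insulin receptor gene Insr stood at 13.3 and 9.29 TPM in the Bil_2D libraries of 15C7 and 19H5 and at 21.4 and 20.3 TPM in Hep_3D. It rose by 0.85 on the log2 scale (SE 0.22, adjusted p = 0.0307 in limma), with an adjusted p between 0.0516 and 0.119 when any 1 library was omitted. The ratio of Insr to Igf1r was 1.5 and 1.06 in Bil_2D and 12.9 and 11.3 in Hep_3D, so Insr was the more abundant of this pair in every library. Igfbp7, a low-affinity relative of the binding proteins, fell from 1508 ± 300 to 295 ± 44.3 TPM (SD, n = 2; log2 difference -2.34, adjusted p = 0.00531). Ins1 and Ins2, the insulin genes, were listed at 0 in every library.

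Of 5 tested genes for proteases of the binding proteins and their inhibitors, 4 fell on both scales (80%) and none rose. Of all genes tested, 51.9% fell in TPM and 9.54% in rescaled TPM. Htra1, a secreted serine protease, fell from 29.3 ± 4.16 to 1.41 ± 0.581 TPM (SD, n = 2; log2 difference -3.66, adjusted p = 0.0043 in limma). Adamts1, which encodes a metalloprotease, stood at 21.7 and 22.7 TPM in Bil_2D and at 2.61 and 1.94 in Hep_3D. Stc1, a stanniocalcin that inhibits the protease PAPP-A, stood at 9.48 and 7.70 TPM in Bil_2D against 1.35 and 1.04 in Hep_3D. Adam12 had 3.32 and 6.83 TPM against 0.0496 and 0.213, and its adjusted p of 0.0096 became 0.0506 without Hep_3D replicate 1. Adam12 passed the filter through Bil_2D alone, so it had to be lower in Hep_3D, and it is 1 of the 4 counted above. Pappa, which encodes PAPP-A itself, stayed under 0.05 TPM in all libraries.

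Of 20 tested adaptors and signalling genes below the receptors, 0 rose and 9 fell in TPM (45%, against 51.9% of all genes tested), and 3 rose and 2 fell in rescaled TPM (15% and 10%, against 11.9% and 9.54%). Irs2, the main insulin receptor substrate of hepatocytes beside Irs1, fell from 34.5 ± 3.35 to 9.56 ± 0.759 TPM (SD, n = 2; log2 difference -1.75, adjusted p = 0.00537 in limma; -0.98 and 0.028 in rescaled TPM). Akt1 stood at 140 and 118 TPM in Bil_2D against 44.3 and 42.1 in Hep_3D, and fell on both scales. Akt2, the AKT form linked to insulin action in liver, stood at 32.1 and 27.4 TPM against 37.3 and 34.3. It did not pass in TPM (adjusted p = 0.197) and rose by 1.05 in rescaled TPM (adjusted p = 0.0164).

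Grb10, an imprinted adaptor that restrains IGF1R and insulin receptor signalling, stood at 23.2 and 31.2 TPM in Bil_2D and at 3.91 and 10.2 in Hep_3D. Its adjusted p of 0.0257 in TPM was 0.164 in rescaled TPM, 0.0847 without Bil_2D replicate 1 and 0.114 without Bil_2D replicate 2. Irs1, Shc1, Grb2, Pik3r2, Foxo3 and Rheb fell in TPM by 0.68 to 0.96. None of these 6 passed in rescaled TPM, where 3 of them (Shc1, Grb2 and Foxo3) had a positive sign. With clone as a replicate block, 4 further pathway genes fell: Grb14, Pik3r1, Igf2bp2 and Igf2bp3 (adjusted p = 0.0328, 0.0187, 0.026 and 0.0162 in limma). In rescaled TPM with the same block none of these 4 passed (adjusted p = 0.60, 0.725, 0.437 and 0.15).

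In the growth hormone route to Igf1 and Igfals, the receptor gene Ghr was higher in Hep_3D although Igf1 was low there. Ghr stood at 27.6 and 8.62 TPM in Bil_2D (15C7, then 19H5) against 64.7 and 59.4 in Hep_3D, and rose by 1.92 (SE 0.55, adjusted p = 0.0411 in limma). The adjusted p became 0.15 and 0.141 without Hep_3D replicates 1 and 2. Socs2, a feedback inhibitor induced by growth hormone, had 84.3 and 46.7 TPM against 19.7 and 2.98, with an adjusted p of 0.0492 in TPM and 0.166 in rescaled TPM. Without Bil_2D replicate 1, Bil_2D replicate 2 and Hep_3D replicate 2 that p was 0.189, 0.112 and 0.0754. Socs3, a feedback inhibitor of cytokine signalling, rose from 47.2 ± 15.8 to 158 ± 11 TPM (SD, n = 2; adjusted p = 0.00918, and 0.0514 without Hep_3D replicate 1).

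Jak2, the kinase bound to the growth hormone receptor, fell in TPM (39.8 and 30.2 against 16.6 and 16.5 TPM) with an adjusted p of 0.0133. That p was 0.351 in rescaled TPM, and in TPM it was 0.064 with Bil_2D replicate 1 omitted, and 0.0605 and 0.0647 with Hep_3D replicates 1 and 2 omitted. Stat5a and Stat5b, the factors through which growth hormone induces Igf1, stood between 3.30 and 7.91 TPM in all libraries. Stat5b did not pass in TPM (adjusted p = 0.0839 in limma) and rose by 1.15 in rescaled TPM (adjusted p = 0.0206). Stat5a passed on neither scale.

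**Figure D5:**
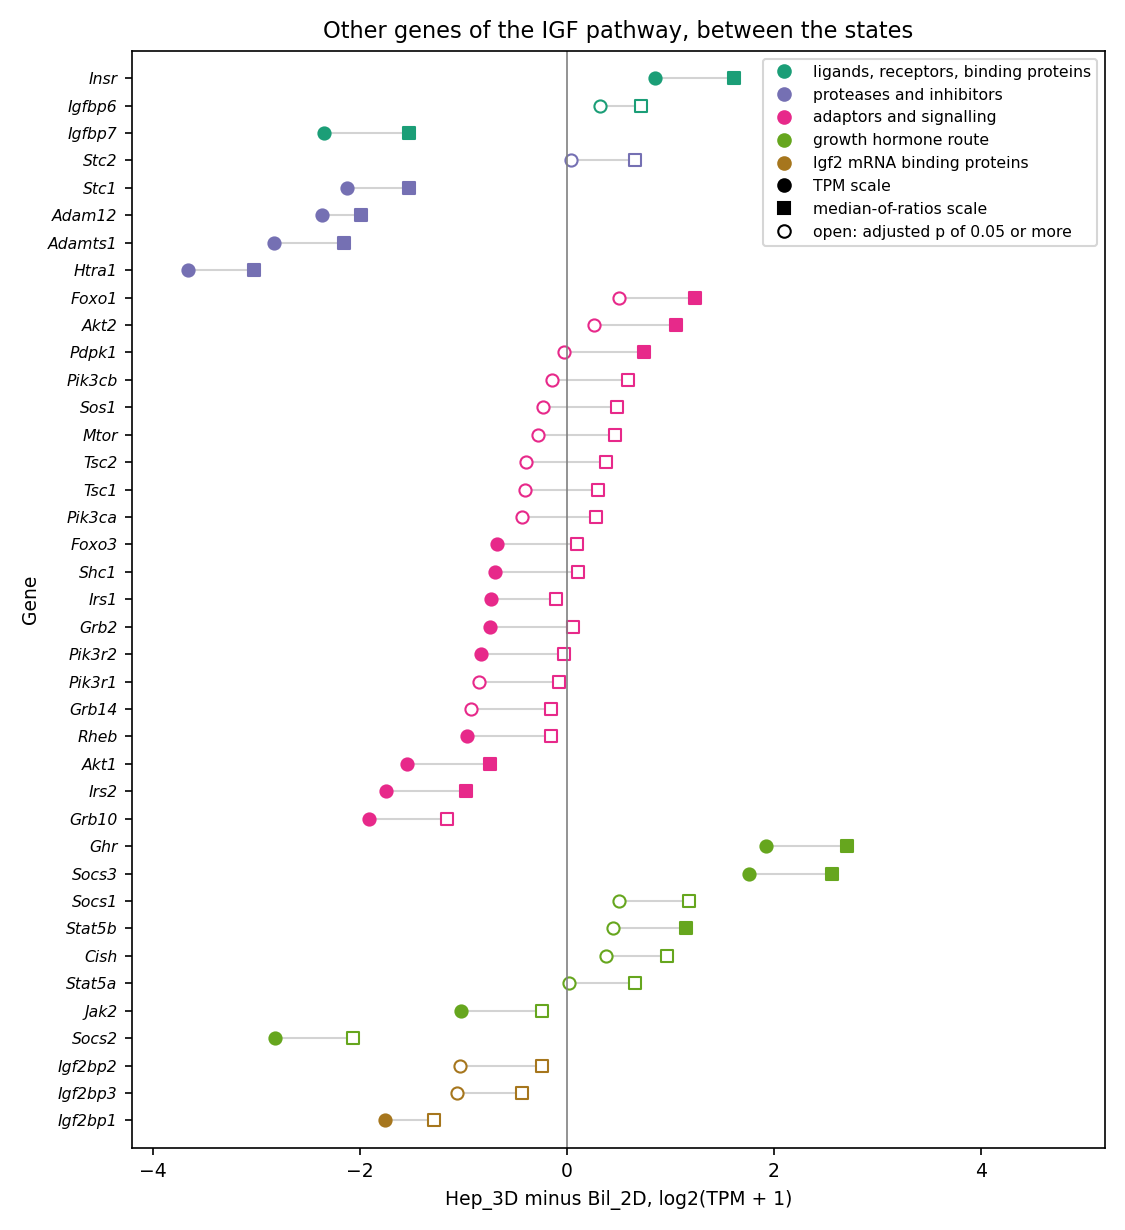
Difference between Hep_3D and Bil_2D for the 39 tested pathway genes outside the 10, in log2(TPM + 1), coloured by list, as circles in TPM and squares in rescaled TPM, filled where the adjusted p was under 0.05. Htra1 lies furthest to the left at -3.66, and most adaptors lie below 0 in TPM and closer to or above 0 on the other.

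Transcripts of the 3 genes whose proteins bind Igf2 mRNA were not higher in TPM in Hep_3D, the group where Igf2 was high. Igf2bp1, a fetal RNA-binding protein gene, stood at 2.82 and 6.68 TPM in Bil_2D (15C7, then 19H5) and at 0.851 and 0.381 TPM in Hep_3D. It fell by 1.76 (adjusted p = 0.0263 in limma), and that p was 0.106 in rescaled TPM and 0.0699, 0.0742 and 0.116 without Bil_2D replicate 2, Hep_3D replicate 1 and Hep_3D replicate 2. Igf2bp1 passed the filter through Bil_2D alone, so it had to be lower in Hep_3D. Igf2bp2 was the most abundant of the 3, at 25.8 and 56.4 TPM in Bil_2D and 15.5 and 21.4 TPM in Hep_3D. Lin28a and Lin28b, regulators of let-7, stayed under 1 TPM.

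Of the 11 genes listed beside Igf2 and H19, Mir483 and Igf2os were the transcripts of the locus listed above 0 in both Hep_3D libraries and at 0 in both Bil_2D libraries. Mir483 was listed at 0 in both Bil_2D libraries and stood at 6.42 and 5.84 TPM in the Hep_3D libraries of 15C7 and 19H5, close to each other where Igf2 differed 4.58-fold. It passed the filter through Hep_3D alone, so it had to differ. Igf2os, on the other strand, was listed at 0 in Bil_2D and stood at 6.58 and 0.625 TPM in Hep_3D, and it shares 7124 bases with the Igf2 gene. The labels do not say whether the libraries kept strand, and reads of the 2 genes cannot be told apart without it. Mir675 was listed at 0 in all libraries, and values for hairpins from such libraries do not measure the mature miRNAs printed above.

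Mrpl23, a mitochondrial ribosomal protein gene beside H19, stood at 81.5 and 121 TPM in Bil_2D and 84.5 and 93.2 TPM in Hep_3D and did not pass (adjusted p = 0.569). Ins2, Th, Ascl2, Lsp1, Tnnt3, Tnni2, Syt8 and Nctc1 stayed under 1 TPM in every library.

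Of 8 tested regulators of imprinting control regions, 0 rose and 5 fell in TPM (62.5%, against 51.9% of all genes tested). In rescaled TPM 2 fell (25%, against 9.54%), Trim28 and Dnmt1. Trim28, the corepressor recruited by ZFP57, fell from 155 ± 1.78 to 53.8 ± 3.46 TPM (SD, n = 2; log2 difference -1.51, adjusted p = 0.00507 in limma). Dnmt1, which maintains DNA methylation and is high in dividing cells, stood at 59.4 and 52.3 TPM in Bil_2D against 14.1 and 7.01 in Hep_3D. Its adjusted p of 0.0088 was 0.0562 and 0.0522 without Bil_2D replicates 1 and 2. Ctcf, the insulator protein that binds between Igf2 and H19, stood at 32.6 and 30.6 TPM against 15.0 and 15.9, fell in TPM (adjusted p = 0.00831, and 0.057 and 0.0523 without Bil_2D replicates 1 and 2) and did not pass in rescaled TPM (-0.21, adjusted p = 0.332). DNA methylation at the locus was not measured.

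Other genes that mouse liver expresses before birth did not all follow Igf2 and H19. Afp, the fetal serum protein alpha-fetoprotein, stood at 5.03 and 1.65 TPM in Bil_2D (15C7, then 19H5) and 124 and 30.7 TPM in Hep_3D, with the higher value in the clone where Igf2 was higher. It rose by 3.98 (SE 0.80, adjusted p = 0.017 in limma), with an adjusted p of 0.056 and 0.0798 without Bil_2D replicates 1 and 2. Gpc3, glypican 3, differed by clone, at 44.2 and 14.1 TPM in the 15C7 libraries of Bil_2D and Hep_3D and at 2.57 and 2.04 TPM in those of 19H5 (adjusted p = 0.623 between the states). Dlk1 stayed under 0.25 TPM. Zhx2, which represses Afp and H19 in adult mouse liver, stood at 10.7 and 8.99 TPM against 5.33 and 5.62. It fell in TPM (adjusted p = 0.0282, and 0.0833 to 0.138 as each library was left out) and differed by -0.02 in rescaled TPM.

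The genes most like Igf2 across the 4 libraries, by the Euclidean distance between log2(TPM + 1) profiles centred on their mean, were Serpina3k, Serpina3n, Wfdc21, Fgg and Ahsg (distances 0.819, 1.29, 1.34, 1.34 and 1.35). Serpina3k, the nearest, had 0.579 and 0 TPM in Bil_2D and 4496 and 560 TPM in Hep_3D, with the clones in the same order as for Igf2. The genes most like H19 were Saa1, Orm2, Plg, Kng1 and Hrg (distances 0.903, 0.910, 1.14, 1.33 and 1.42). Saa1, an acute phase protein, reached 10086 and 27694 TPM in Hep_3D from 35.6 and 56.1 in Bil_2D, higher in 19H5 as H19 was. H19 was number 42 in likeness to Igf2, at a distance of 3.07, and Igf2 was number 46 in likeness to H19. Serpina3k, Serpina3n, Saa1 and Orm2 belong to families of near-identical copies, and how reads were split among the copies is uncertain.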

How the data were processed

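Total RNA of 4 cultures, 2 per group, was sequenced. The authors deposited TPM per gene symbol, each library summing to 1000000; Salmon, the mm10 build and DESeq2 are named, without versions or roles, in the submitters' processing notes, and the annotation is not given in the sources used here. TPM keeps no depth, so no interval or count model was used. Groups and clones came from the sample titles. The labels name separate clones and nothing more on independence, so the p-values reflect only how far these samples spread, and that spread may be technical.

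The 12336 of 24493 symbols that reached 1 TPM in 2 or more libraries were compared on log2(TPM + 1) with limma 3.58.1 in R 4.3.3 (eBayes with a trend), with Benjamini-Hochberg adjustment across all of them and a threshold of 0.05. The state comparison had 2 residual degrees of freedom and the clone comparison, with state as a term, 1. The fit was tested on simulated data. Same-clone libraries deviated together from their group means (r = 0.414 across genes), and the clone pairs them by the labels. The main state comparison did not use this pairing, and the replicate block did. Rescaled TPM are deposited TPM divided by median-of-ratios factors, computed from the genes that reached 1 TPM in all 4 libraries. The alternatives were other scalings, pseudocounts, filters, a robust fit, a replicate block and left-out libraries. The genes, lists and tests were chosen with earlier results of these data known. All 10 genes were named; from the lists, genes past the threshold and per list up to 4 others by mean TPM were eligible, and a few low genes named by their ceiling, with Akt2, Gpc3, Pappa, Dlk1 and the marker values, were named after their values were seen. Of the pathway lists, 1 gene is not reported here and enters no count of them.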

Additional observations from a re-analysis of the deposited data

Results flagged for a closer look

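These genes are singled out because the difference between states had opposite signs in the clones, or the difference between clones had opposite signs in the states, on the TPM scale; with 1 library in each clone and state the difference itself was not tested. For Igfbp3 the log2 difference between Hep_3D and Bil_2D was 1.55 in 15C7 and -0.32 in 19H5, so that of 19H5 was the lower by a gap of -1.87. For Igfbp2 it was -0.35 in 15C7 and 0.64 in 19H5 (gap 0.99), for Igfbp4 -0.75 and 0.05 (gap 0.80) and for Igfals -0.46 and 0.37 (gap 0.83). In rescaled TPM both clones had a positive sign for each of these 4 genes, so the opposite signs hold on the TPM scale alone. For the receptors the order of the clones differed between states: the difference of 19H5 from 15C7 was 0.07 in Hep_3D and -0.02 in Bil_2D for Igf1r (gap 0.09), and -0.38 and 0.03 for Igf2r (gap -0.41). In rescaled TPM the difference of Igf1r was positive in both states, at 0.11 and 0.05, and that of Igf2r kept opposite signs, at -0.33 and 0.10.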

How the results depend on the processing

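Igf2, H19, Igfbp1, Igf1r and Igf2r kept their direction under each scaling, pseudocount, block and left-out library tried. Pseudocounts of 0.1 and 5 moved the difference of Igf1r from -1.85 to -2.29 and -1.04, and that of Igf2 from 9.76 to 11.04 and 7.92. Signs turned for the other 5, of which Igf1, under the filter, went from -0.09 to 0.16 in rescaled TPM. Igfbp4 went to 0.47 in rescaled TPM, 0.0281 with quantile normalization and 0.20 without the 50 most abundant genes (taken outside the 10). Igfals went to 0.35, 0.31 and 0.30 under the same 3, to 0.44 with a pseudocount of 0.1, to 1.09 without Bil_2D replicate 1 and to 0.67 without Hep_3D replicate 2 (range with single libraries left out -1.18 to 1.09). Igfbp2 went to -0.00080 with a pseudocount of 5, to -0.88 without Bil_2D replicate 2 and to -0.39 without Hep_3D replicate 1 (range -0.88 to 1.17). Igfbp3 went to -0.26 without Hep_3D replicate 1 (range -0.26 to 1.49).

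All genes called between the states numbered 7241, and 2642 in rescaled TPM, 3104 with quantile normalization, 3367 without the 50 most abundant genes, 3193 in rescaled TPM joined to the replicate block, and 2627 to 4537 with single libraries left out. Other pathway genes that rose numbered 3, and 7, 7, 6 and 7 under the same 4 settings, 1 with no filter and 0 to 2 with libraries left out. Those that fell numbered 17, and 7, 7, 7 and 7, and 9 to 11. The replicate block alone gave 3 and 21. Called lower on the TPM scale, Shc1 and Grb2 stood at 0.11 and 0.0606 in rescaled TPM with and without the replicate block, and Foxo3 at 0.10 (0.00330 with quantile normalization). Pdpk1, at -0.02, rose to 0.75 in rescaled TPM, with and without the block, and 0.67 with quantile normalization. Between the clones, 0 genes passed except 1 without the 50 most abundant genes. The clone comparison with a library left out has no residual degrees of freedom and was not run. The cause of these shifts was not tested beyond the scaling itself. Depth is unknown, so values under 1 TPM carry an unknown counting error.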
